A study of Mus musculus with 21 samples.

Results

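The Ms4a genes are a family of related genes for small membrane proteins, and 7 of them (Ms4a1, Ms4a4b, Ms4a4c, Ms4a6b, Ms4a6c, Ms4a6d and Ms4a7) are described here in cells sorted from mouse spleen. They were taken as the probe sets whose single gene symbol is one of the 7, out of 13284 genes tested and 18193 genes with a probe set of 1 symbol on the array. The 7 genes were chosen by their measured signals on these same arrays. Their levels and differences are therefore given as a description, with no test.

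RNA was measured on 21 arrays, 3 for each of 7 groups named in the sample titles. 33D1 and DEC205 dendritic cells (DCs) were purified from C57BL6 mice injected with Flt3L melanoma and killed on days 10 to 12, with 20 mice behind each array. The same 2 kinds of DC came from WT C57BL6 mice, with 40 to 80 mice behind each array. B cells, CD8 T cells and CD4 T cells came from WT C57BL6 mice, with 5 to 8 mice each. The injected mice received the ligand and the tumour together, so their effects cannot be told apart, and mice with a tumour that lacks Flt3L were not analysed here. The study's design text describes 33D1 as an antibody to CD11c-high DCs that lack CD8, and gives as the aim the membrane protein it recognises. To that end, genes also expressed in the other DCs, B cells or T cells were set aside.

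Ms4a proteins cross the cell membrane several times, and many of them sit beside other receptors and change how these signal. The best known are CD20, the product of Ms4a1, which is a B cell surface protein and the target of therapeutic antibodies, and the beta chain of the high-affinity IgE receptor, the product of Ms4a2, on mast cells. Other members have been studied in T cells, monocytes and macrophages.

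The array carried 26 probe sets for 17 Ms4a genes, 15 of them for the 7 genes described. Probe sets with a signal above 156.3, which is the table's median, on 3 or more arrays entered the tests. This left 13 of the 15 probe sets and all 7 genes, and the probe set with the highest mean stands for a gene unless another is named. Signals are MAS5 intensities on a linear scale. Levels are compared here between groups within a probe set. Words such as bright, dim or low, and sums of marker signals, do cross probe sets and are rough descriptions only. In bulk RNA, fewer cells of a type and less RNA per cell cannot be told apart. The labels do not say whether the 3 pools of a group were separate mice, so the spread between arrays, and the p-values made from it, may be technical, and 3 arrays a group limit the precision.

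**Figure D1:**
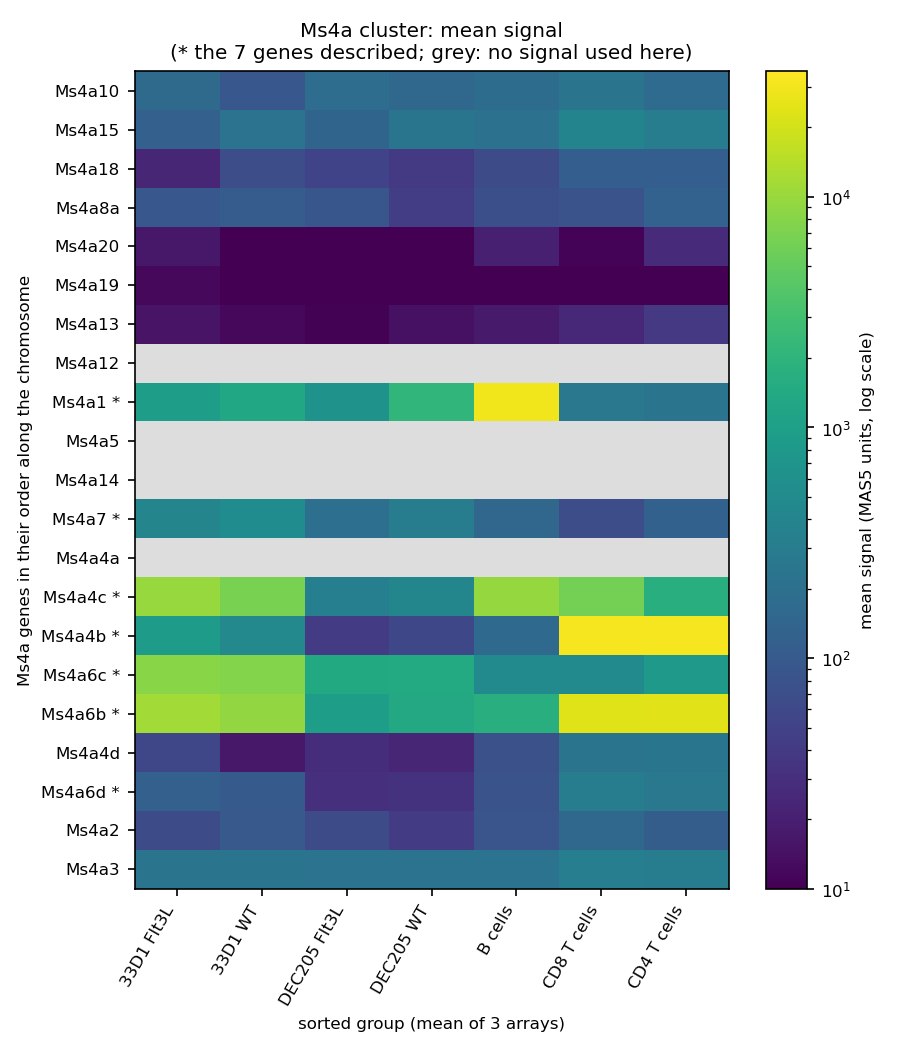
Mean signal (MAS5 units, colour on a log scale, values under 10 drawn as 10) of the Ms4a genes (rows, in RefSeq order along mouse chromosome 19) in the 7 sorted groups (columns, mean of 3 arrays); asterisks mark the 7 genes described and grey marks genes with no signal used here. Ms4a4c, Ms4a4b, Ms4a6c and Ms4a6b stand next to each other: Ms4a4c, Ms4a6c and Ms4a6b are all bright in the 33D1 columns, and Ms4a4b and Ms4a6b are brightest in the T cell columns, while the other 10 Ms4a genes on the array stay at or below 654.4 on every array.

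In the RefSeq order of the 21 Ms4a genes on chromosome 19, Ms4a4c, Ms4a4b, Ms4a6c and Ms4a6b follow each other at places 14 to 17, all on the plus strand. Ms4a1 stands at place 9, Ms4a7 at place 12 and Ms4a6d at place 19. The 4 neighbours are the genes with the largest differences between the DC subsets below, so their promoters are shown. RefSeq promoter windows, from 250 bases before to 50 bases after the gene start, were found for 5 of the 7 genes. The 4 windows of build GRCm38.p6 lie at chr19:11407411-11407710 (Ms4a4c), chr19:11443308-11443607 (Ms4a4b), chr19:11469118-11469417 (Ms4a6c) and chr19:11518309-11518608 (Ms4a6b). They are printed 5′ to 3′ on the plus strand, with matches to the motifs named below in capitals.
Ms4a4c: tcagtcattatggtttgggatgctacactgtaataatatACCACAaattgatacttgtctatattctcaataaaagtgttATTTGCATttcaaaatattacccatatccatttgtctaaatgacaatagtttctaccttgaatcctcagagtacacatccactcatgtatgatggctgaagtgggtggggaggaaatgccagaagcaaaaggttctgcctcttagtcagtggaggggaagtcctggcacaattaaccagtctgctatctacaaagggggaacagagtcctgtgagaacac
Ms4a4b: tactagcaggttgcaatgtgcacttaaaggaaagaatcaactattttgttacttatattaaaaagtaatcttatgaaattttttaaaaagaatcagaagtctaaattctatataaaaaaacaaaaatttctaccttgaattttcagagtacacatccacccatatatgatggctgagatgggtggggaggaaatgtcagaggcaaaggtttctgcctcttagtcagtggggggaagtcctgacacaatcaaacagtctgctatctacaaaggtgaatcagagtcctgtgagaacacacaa
Ms4a6c: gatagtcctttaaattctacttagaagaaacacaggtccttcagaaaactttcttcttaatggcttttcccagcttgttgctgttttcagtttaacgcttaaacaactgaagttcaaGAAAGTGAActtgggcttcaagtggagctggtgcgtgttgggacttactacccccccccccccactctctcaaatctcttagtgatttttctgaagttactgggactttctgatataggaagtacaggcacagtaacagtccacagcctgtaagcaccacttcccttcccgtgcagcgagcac
Ms4a6b: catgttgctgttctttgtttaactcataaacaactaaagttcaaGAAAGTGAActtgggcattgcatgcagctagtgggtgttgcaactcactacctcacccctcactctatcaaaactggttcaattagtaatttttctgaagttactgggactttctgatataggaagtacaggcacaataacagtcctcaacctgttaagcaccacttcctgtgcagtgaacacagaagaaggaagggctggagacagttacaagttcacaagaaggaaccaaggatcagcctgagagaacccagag
The 4 windows formed 2 pairs. In the best local alignment of Ms4a4c and Ms4a4b, 229 of 301 columns were identical (76.1%), over bases 15 to 300 of the Ms4a4c window and bases 11 to 296 of the Ms4a4b window. Ms4a6c and Ms4a6b shared 193 of 234 columns (82.5%), over bases 76 to 300 and 3 to 227 of their windows. Between the pairs, the longest local alignment, of Ms4a4c with Ms4a6b, had 300 columns and 56.0% identity.

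The motifs were searched on both strands, and their letters were chosen after the sequences had been seen. The core of the interferon-response element, GAAANNGAA, which interferon regulatory factors bind, was present in the windows of Ms4a6c (from position -133, counted from the gene start) and Ms4a6b (from -206), with the same letters in both. It was also present in both RefSeq windows of Ms4a7, and in 8.56% of 32851 promoter windows of this length. The octamer ATTTGCAT, bound by Oct factors, was present in Ms4a4c from -170 and in 1.74% of all windows. The RUNX core TGTGGT was present on the minus strand of Ms4a4c from -211 and in 16.8% of all windows. The Ets-IRF composite element, which Ets factors bind with IRF4 or IRF8, was in none of these windows of the 5 genes and in 2.72% of all windows, and the Ms4a4b window held none of the 4 motifs. A match is a run of letters, not a bound site.

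All arrays had been scaled to a 2% trimmed mean of 500, with array medians from 121.9 to 204.4 and correlations of log2 signals from 0.949 to 0.979 within groups. Although a description of the lymphocyte samples speaks of DCs, the summed signal of 10 B cell markers was 132126 to 141575 on the B cell arrays and at most 10481 on any other array. The sum of 11 T cell markers was 81049 to 105397 on the T cell arrays and at most 1365 elsewhere. Ly75, the gene of the DEC205 antigen, had a mean of 2401 in Flt3L and 2973 in WT DEC205 DCs, and of 148.6 and 169.3 in the matching 33D1 DCs. An array in each of 2 DC groups stood apart. Array 3 of Flt3L 33D1 DCs had an Irf8 signal of 2407, against 341.2 and 371.3 on the other two, and array 3 of WT DEC205 DCs had a Sirpa signal of 665.9, against 277.3 and 230.8. Irf8 is a transcription factor of DEC205 DCs and Sirpa a receptor of 33D1 DCs, so each array had a raised gene of the other subset. Not every such gene was raised on the Flt3L 33D1 array. Cd8a was 488.7 there, against 131.8 and 169.9 on the other two, but Ly75 was 124.7, against 197 and 124. Why these arrays stood apart was not tested.

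The first comparison asked how the Ms4a genes differ between the 2 DC subsets. Ms4a4c, Ms4a6b, Ms4a6c and Ms4a4b had higher signals in 33D1 DCs than in DEC205 DCs, in Flt3L mice and in WT mice, on every array. Differences are given on the scale of log2(signal + 48.6), which understates those of low genes, with the standard error of the fit.

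Ms4a4c had signals of 10087, 11224 and 8662 in Flt3L 33D1 DCs and 6625, 7180 and 6746 in WT 33D1 DCs. It had 331.6, 360.4 and 318.6 in Flt3L DEC205 DCs and 271, 310.6 and 676.2 in WT DEC205 DCs. No DEC205 array came near any 33D1 array, and the highest DEC205 value was on the array with raised Sirpa. The difference between 33D1 and DEC205 DCs was 4.70 ± 0.20 in Flt3L mice, a ratio of mean signals of 29.7, and 3.98 ± 0.20 in WT mice, a ratio of 16.3. These were the largest differences of the 7 genes. Without both arrays that stood apart, the difference in WT mice was 4.35.

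Ms4a6b had signals of 10735, 12636 and 10792 in Flt3L 33D1 DCs and 8828, 10080 and 9160 in WT 33D1 DCs. In DEC205 DCs it had 931.2, 1067 and 909.6 (Flt3L) and 1324, 1092 and 1777 (WT). The subsets again did not overlap. The difference was 3.49 ± 0.13 in Flt3L mice and 2.73 ± 0.13 in WT mice, ratios of 11.8 and 6.69.

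Ms4a6c, a gene known for high expression in mouse monocytes, had 6871, 9056 and 8567 in Flt3L 33D1 DCs and 7635, 7618 and 7543 in WT 33D1 DCs. In DEC205 DCs it had 1552, 1437 and 1234 (Flt3L) and 1444, 1174 and 1750 (WT). Every 33D1 array lay above every array of the other 5 groups, whose highest value was 1750. The difference was 2.49 ± 0.20 in Flt3L mice and 2.36 ± 0.20 in WT mice, ratios of 5.80 and 5.22. These values come from 1450234_at, and the other probe set of the gene, described below, gave another order of the groups.

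Ms4a4b, whose protein is known in mouse T cells as a partner of the receptor GITR, had far lower signals in DCs. It had 862.5, 976.8 and 789.4 in Flt3L 33D1 DCs and 518.8, 443.2 and 425 in WT 33D1 DCs. It had 42, 53.4 and 32.1 in Flt3L DEC205 DCs and 47.9, 45.5 and 83.2 in WT DEC205 DCs, where all 6 values were below the table median. The difference was 3.35 ± 0.14 in Flt3L mice and 2.26 ± 0.14 in WT mice. With the DEC205 signals this low its size depended on the offset: it was 2.37 in Flt3L and 1.52 in WT mice with the table median, and 3.94 and 2.71 with 16, so no ratio is given. The second probe set, 1425325_at, was dimmer and gave 1.44 ± 0.35 and 0.91 ± 0.35.

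**Figure D2:**
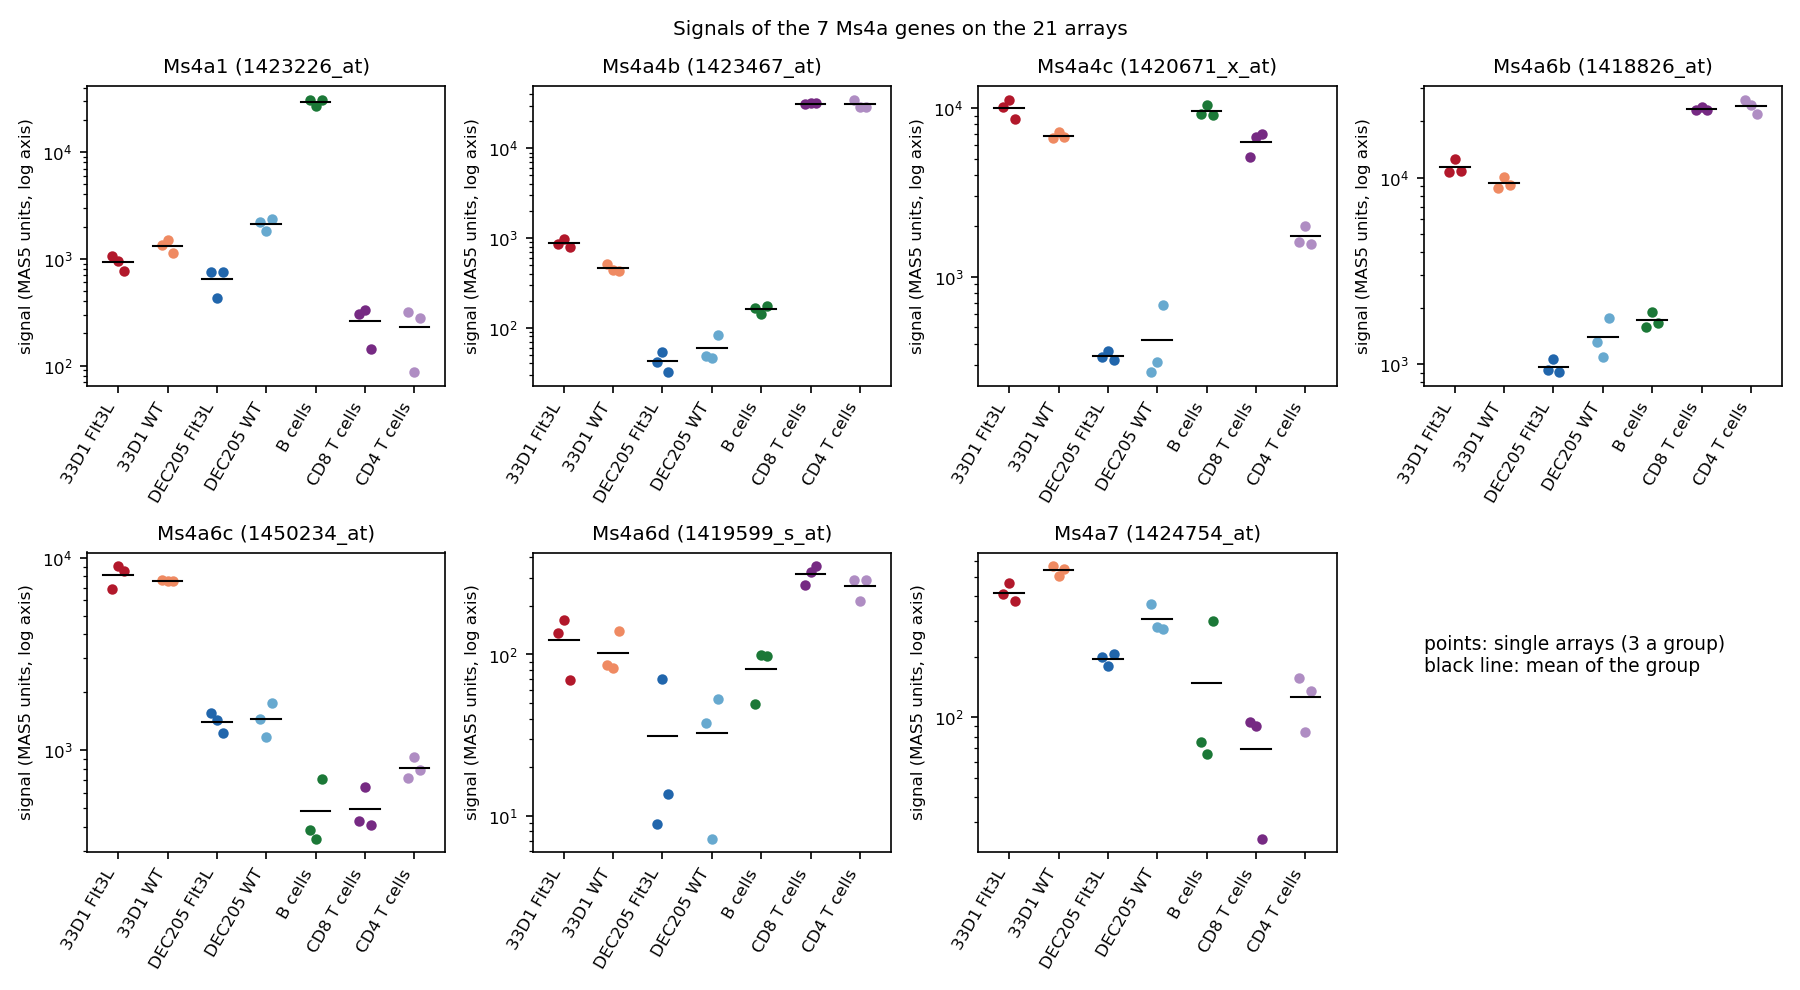
Signal (MAS5 units, log axis) of the 7 Ms4a genes on each of the 21 arrays, by sorted group; points are arrays and black lines are means of 3 arrays. Ms4a1 is highest in B cells (mean 29490), Ms4a4b in CD8 and CD4 T cells (31640 and 30980), and Ms4a6c and Ms4a7 in 33D1 DCs. For Ms4a6c this holds for the probe set drawn, 1450234_at, and not for its other one.

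Ms4a7, a gene known from macrophages, had modest signals. They were 409.7, 462 and 376.8 in Flt3L 33D1 DCs, 563.2, 500.2 and 546.7 in WT 33D1 DCs, 198.5, 179.3 and 204.8 in Flt3L DEC205 DCs and 364.7, 281.6 and 273.5 in WT DEC205 DCs. All 33D1 arrays lay above all others, the nearest being a WT DEC205 array. The difference was 0.93 ± 0.32 in Flt3L mice and 0.73 ± 0.32 in WT mice. Ms4a6d, whose protein works with the receptor VSIG4 in mouse macrophages, had at most 163.6 on any DC array. Its means were 122.6 ± 48.5 and 102.4 ± 31.6 in Flt3L and WT 33D1 DCs, against 31.1 ± 34.5 and 32.5 ± 23.2 in the matching DEC205 DCs (SD, n = 3 each). The Flt3L groups overlapped, since 1 Flt3L DEC205 array had 70.9 and 1 Flt3L 33D1 array had 69.

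Ms4a1 lay the other way in WT mice alone. In Flt3L mice it had 1067, 946.7 and 773.9 in 33D1 DCs and 751.6, 432.2 and 749.5 in DEC205 DCs, a difference of 0.52 ± 0.29. In WT mice it had 1355, 1502 and 1125 in 33D1 DCs and 2198, 1816 and 2345 in DEC205 DCs, a difference of -0.66 ± 0.29. The groups did not overlap in either comparison. Neither difference was called at an adjusted p under 0.05. By 1450912_at the differences were 0.86 ± 0.29 in Flt3L mice, which was called, and -0.53 ± 0.29 in WT mice. With that probe set the WT groups overlapped (394.1 to 457.7 in 33D1 and 447.5 to 875.4 in DEC205 DCs).

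By the fit across all genes, 6 of the 7 were called higher in 33D1 DCs and 0 lower in Flt3L mice, where 11.7% of tested genes were called higher and 11.8% lower. In WT mice 5 of the 7 were called higher and 0 lower, where 11.3% of tested genes were called higher and 11.8% lower. As the genes were selected on these arrays, nothing is read from these counts. The median difference of the 7 was 2.49 in Flt3L mice and 2.26 in WT mice, and that of all tested genes was 0.04 in both. The call of Ms4a7 in Flt3L mice was lost under 11 of the other settings, among them leaving out any 1 of the 6 arrays (0.864 to 0.996) and the replicate number as a block (again 0.93). That of Ms4a6d in WT mice was lost under 11 of them too, and its call in Flt3L mice without array 2 of the 33D1 DCs (0.964) or array 1 (0.946) or 3 (1.003) of the DEC205 DCs.

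**Figure D3:**
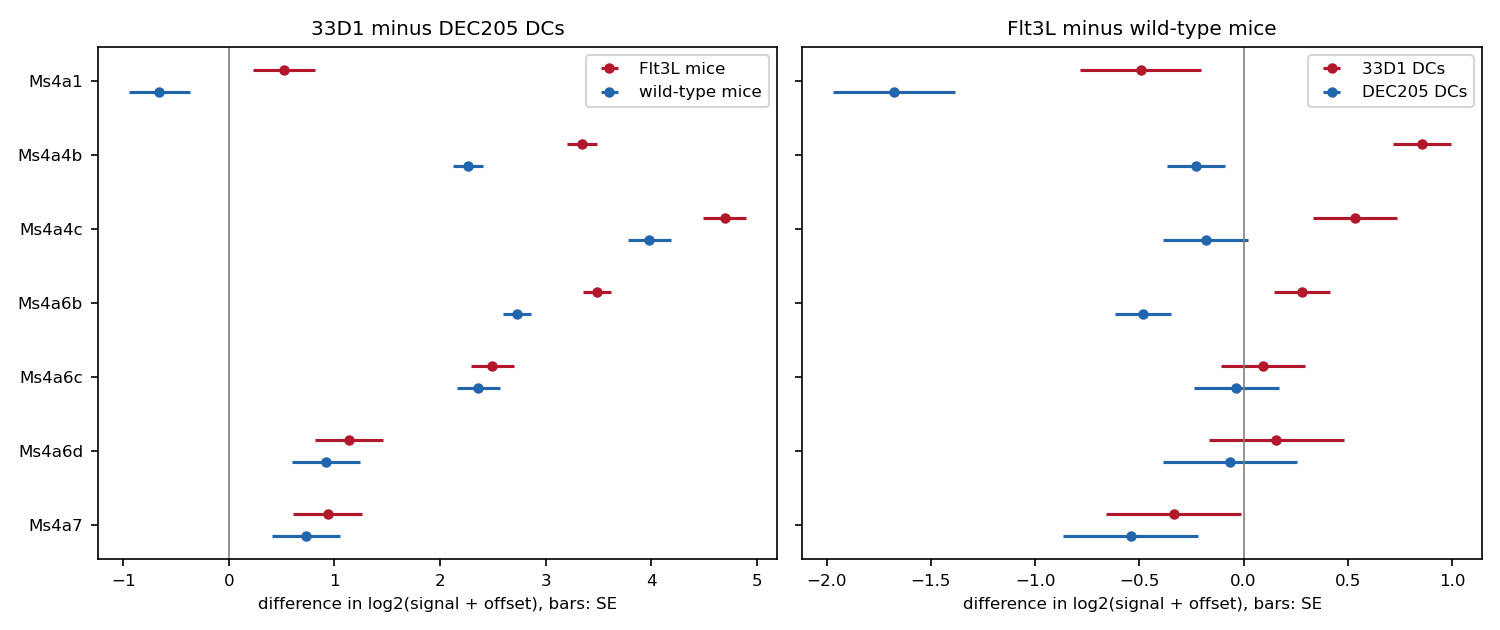
Difference in log2(signal + 48.6) of the 7 Ms4a genes, with SE bars from the fit, for 33D1 minus DEC205 DCs (left) and Flt3L minus WT mice (right, narrower axis). Ms4a4c, Ms4a6b, Ms4a6c and Ms4a4b lie between 2.26 and 4.70 on the left, and Ms4a1 lies at -1.68 for DEC205 DCs on the right.

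Levels of other cell types' genes moved with the DC subsets too. The 10 B cell markers summed to 9490 to 10284 in Flt3L and 8904 to 10481 in WT 33D1 DCs, against 1390 to 1935 and 1795 to 2243 in the matching DEC205 DCs. Of the 10, 4 were called higher in 33D1 DCs of Flt3L mice and 5 in WT mice, and 0 lower. Of all tested genes, 11.7% were called higher in Flt3L mice and 11.3% in WT mice, and 11.8% lower in each. Cd22, an inhibitory receptor, made up most of the 33D1 sum, with means of 6395 and 6105 in Flt3L and WT 33D1 DCs, against 432.7 and 706.3 in the matching DEC205 DCs. Within that list Cd79a, which defines the B cell receptor, averaged 69.9 and 84.7 in Flt3L and WT 33D1 DCs, against 78.4 and 84.5 in DEC205 DCs. The 11 T cell markers summed to 1101 to 1365 and 1125 to 1221 in Flt3L and WT 33D1 DCs, against 635 to 772 and 703 to 775 in DEC205 DCs. Of these 11, however, 1 was called higher and 0 lower in Flt3L mice (median 0.17). In WT mice 1 was called higher and 1 lower (median 0.04), beside the same shares of all tested genes. Cd5 alone averaged 724 and 771 in Flt3L and WT 33D1 DCs, against 251.3 and 328.5 in the matching DEC205 DCs. The 11 macrophage and monocyte markers summed to 17518 to 20751 and 18906 to 25667 in 33D1 DCs, against 14250 to 15308 and 14306 to 18713 in DEC205 DCs. Their members went both ways, with 3 called higher and 3 lower in Flt3L mice and 2 higher and 4 lower in WT mice (median -0.67). The shares of all tested genes are those given beside the B cell markers. Csf1r, the receptor of a macrophage growth factor, averaged 7975 in WT 33D1 and 1505 in WT DEC205 DCs, while Lyz2, lysozyme, averaged 2046 and 6889. The 8 plasmacytoid DC markers summed the other way in WT mice (3064 to 3406 against 4737 to 4829). Of these 8, however, 1 was called higher and 2 lower there (median -0.01), beside the same shares of all tested genes. Ccr9 alone averaged 160.6 in WT 33D1 and 2210 in WT DEC205 DCs. The 4 NK cell markers overlapped in WT mice (437 to 644 against 448 to 652). The part of these cells in the Ms4a differences was not tested.

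Ms4a1 in DCs can be set against its level in B cells. It reached 3.15% and 4.50% of the B cell mean in Flt3L and WT 33D1 DCs, and 2.19% and 7.19% in Flt3L and WT DEC205 DCs. In WT DEC205 DCs Cd79a was at 0.29% of its B cell mean, Cd79b at 0.39% and Ebf1, a B cell transcription factor, at 0.51%. The 10 markers there had a median of 1.08%, and their range reached 21.3% (Pax5). The Ms4a1 share was thus above 9 of the 10 markers in WT DEC205 DCs, and within the range of the markers in the other 3 DC groups.

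Ms4a4b can be set against its level in T cells in the same way. It reached 2.80% and 1.48% of the T cell mean in Flt3L and WT 33D1 DCs, and 0.14% and 0.19% in Flt3L and WT DEC205 DCs. Cd3d, a chain of the T cell receptor complex, was at 0.10% and 0.08% in Flt3L and WT 33D1 DCs, and Cd3e at 0.76% and 0.64%. Cd5, which was at 11.0% and 11.7%, was the one of the 11 markers above Ms4a4b in 33D1 DCs. Ms4a6b stood at 48.0% and 39.4% of its T cell mean in Flt3L and WT 33D1 DCs, and at 4.08% and 5.89% in the matching DEC205 DCs.

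**Figure D4:**
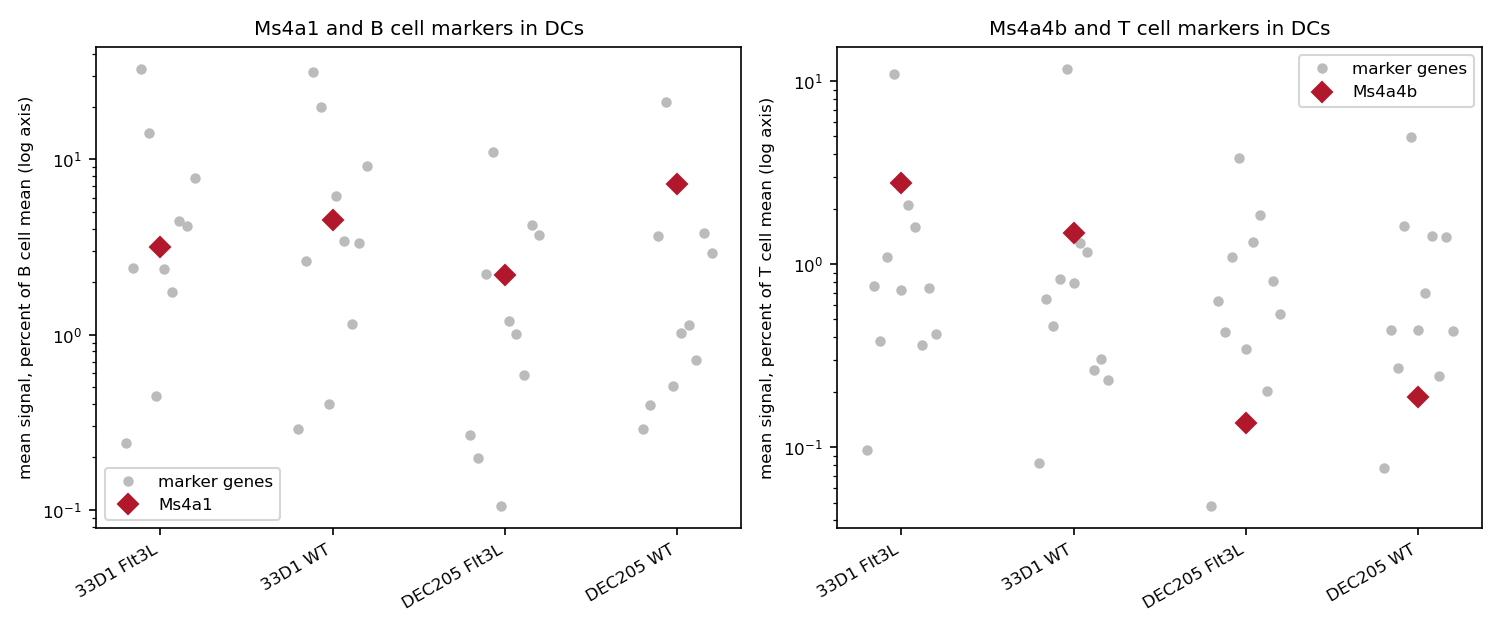
Mean signal in the 4 DC groups as a percent of the B cell mean (left, Ms4a1 and 10 B cell markers) or of the T cell mean (right, Ms4a4b and 11 T cell markers), on log axes; each point is the mean of 3 arrays. Ms4a1 in WT DEC205 DCs (7.19%) and Ms4a4b in Flt3L 33D1 DCs (2.80%) each lie above all but 1 marker.

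The next comparison asked what differed in DCs of mice with Flt3L melanoma. Ms4a4b was higher in 33D1 DCs of Flt3L mice than of WT mice, and Ms4a1 was lower in DEC205 DCs of Flt3L mice. In 33D1 DCs Ms4a4b averaged 876.2 ± 94.5 in Flt3L mice and 462.3 ± 49.7 in WT mice (SD, n = 3 each), without overlap, a difference of 0.86 ± 0.14. In DEC205 DCs its means were 42.5 ± 10.7 and 58.9 ± 21.1, with overlap, a difference of -0.23 ± 0.14. The effect in 33D1 minus that in DEC205 DCs was 1.08 ± 0.20. That difference of effects lost its call with the replicate block (again 1.08), and with any of 8 single arrays left out (0.93 to 1.15). The second probe set gave 0.09 for the effect in 33D1 DCs and 0.53 for the difference of effects.

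In DEC205 DCs Ms4a1 averaged 644.4 ± 184 in Flt3L mice and 2120 ± 273 in WT mice (SD, n = 3 each), a difference of -1.68 ± 0.29 and a ratio of 0.30. In 33D1 DCs it averaged 929.2 ± 147 and 1327 ± 190, a difference of -0.49 ± 0.29. All Flt3L arrays were below all WT arrays in both subsets by this probe set. By 1450912_at the difference was -1.51 ± 0.29 in DEC205 DCs and -0.12 ± 0.29 in 33D1 DCs, where the Flt3L and WT arrays overlapped (305.5 to 474.5 and 394.1 to 457.7). The sum of the 10 B cell markers in DEC205 DCs was 1390 to 1935 in Flt3L mice and 1795 to 2243 in WT mice.

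Ms4a4c was not called in either subset, but its 33D1 arrays of Flt3L mice, at 8662 to 11224, lay above those of WT mice, at 6625 to 7180, a difference of 0.53 ± 0.20. It was called at 0.63 without both arrays that stood apart. Ms4a6b was 0.28 ± 0.13 higher in 33D1 DCs and -0.48 ± 0.13 in DEC205 DCs, each without overlap. Ms4a7 had lower values in Flt3L mice in both subsets, by -0.34 ± 0.32 and -0.54 ± 0.32, again without overlap. Ms4a6c moved by at most 0.09, and Ms4a6d by at most 0.16, in either subset. The Ms4a4c difference in DEC205 DCs, -0.18 ± 0.20, was 0.185 without array 3 of WT DEC205 DCs.

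Of the 7 genes, 1 was called higher in 33D1 DCs of Flt3L mice and 0 lower, where 0.851% of tested genes were called higher and 0.158% lower. In DEC205 DCs 0 were called higher and 1 lower, where 1.22% and 0.888% of tested genes were called. For the difference of the effects, 1 was called higher (Ms4a4b) and 0 lower, where the shares of tested genes were 0.0903% and 0.0151%. These contrasts share the DC groups with the subset comparison, and the genes were selected on them.

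In lymphocytes Ms4a1 and Ms4a4c had higher signals in B cells, and Ms4a4b, Ms4a6b and Ms4a6d in T cells. Ms4a6c (-0.42 ± 0.18) and Ms4a7 (0.29 ± 0.28) were not called between B and T cells. Ms4a6c was, however, called lower in B cells by its other probe set, 1457725_at (-0.51 ± 0.14), and without array 3 of the B cells (-0.71). Ms4a1 had 30936, 26772 and 30747 in B cells, against 306.7, 331 and 143.6 in CD8 T cells and 315.8, 86.9 and 280.3 in CD4 T cells. The difference of B cells from the mean of both T cell groups was 6.75 ± 0.25, a ratio of mean signals of 120.9, and 7.41 ± 0.25 by its other kept probe set, 1450912_at. Ms4a1 was far above every DC array in B cells and below every DC array in T cells.

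Ms4a4b had 167.7, 143.5 and 173.7 in B cells, against 31113, 31809 and 31995 in CD8 T cells and 35000, 29151 and 28781 in CD4 T cells. The difference of B cells from T cells was -7.22 ± 0.12, and -1.70 ± 0.30 by the dimmer 1425325_at. CD8 and CD4 T cells differed by 0.04 ± 0.14. Ms4a6b lay the same way, with 1727 ± 170 in B cells against 23250 ± 488 in CD8 and 24200 ± 2064 in CD4 T cells (SD, n = 3 each), a difference of -3.75 ± 0.12. Its 33D1 level thus lay between those of B and T cells.

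Ms4a4c was high in B cells, at 9274, 10440 and 9093, and differed between the T cell groups. CD8 T cells had 5133, 6772 and 6985, and CD4 T cells 1612, 2007 and 1567, without overlap. The difference was 1.83 ± 0.20, a ratio of 3.64. B cells minus T cells was 1.53 ± 0.18. In B cells the level overlapped that of Flt3L 33D1 DCs.

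Ms4a6c had 383, 346.9 and 709.8 in B cells, 429.8, 646 and 408.9 in CD8 T cells and 720.2, 919.6 and 784.2 in CD4 T cells by 1450234_at. CD8 T cells were thus below CD4 T cells on every array, by -0.68 ± 0.20. Ms4a7 had 75.2, 65.6 and 300.5 in B cells and at most 156.9 in T cells. Array 3 of the B cells, which was high for both genes, also had 290.7 for Fcer1g, a signalling chain of myeloid cells, against 65.9 and 128.9 on the other two. Ms4a6d was highest in T cells, at 316.5 ± 42.9 in CD8 and 265.5 ± 44.7 in CD4 T cells (SD, n = 3 each), against 81.8 ± 28.3 in B cells.

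In B cells minus T cells 2 of the 7 were called higher and 3 lower, where 13.1% and 13.9% of tested genes were called. In CD8 minus CD4 T cells 1 was called higher and 0 lower, where the share was 1.63% in each direction. In the mean of the WT DC groups minus the mean of the 3 lymphocyte groups, 2 were called higher (Ms4a6c by 2.46 ± 0.13 and Ms4a7 by 1.61 ± 0.21) and 4 lower, where 22.4% and 30.3% of tested genes were called. By its other probe set, 1457725_at, Ms4a6c was instead called lower there (-4.13 ± 0.10). The Ms4a1 mean in that comparison, 0.40 ± 0.19 on the log2 scale, has the opposite sign to its ratio of mean signals, 0.17, because B cells and T cells lie on either side of the DCs. Ms4a6d, counted as lower in B cells and in WT DCs, passed the filter only through its T cell arrays. Of its 7 arrays above the table median, all but 1 of Flt3L 33D1 DCs (163.6) were T cell arrays. Ms4a7, counted as higher in WT DCs, would not have passed on its lymphocyte arrays. These calls are therefore not read as tests.

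The order of the 7 groups differed from gene to gene. For Ms4a1, from high to low, it was B cells, WT DEC205, WT 33D1, Flt3L 33D1 and Flt3L DEC205 DCs, then CD8 and CD4 T cells, and only the last 2 groups overlapped. Its other probe set, 1450912_at, gave the same order, but there WT 33D1 DCs overlapped both WT DEC205 and Flt3L 33D1 DCs. For Ms4a4b it was both T cell groups (overlapping), Flt3L 33D1, WT 33D1, B cells, then WT and Flt3L DEC205 DCs (overlapping). For Ms4a4c it was Flt3L 33D1 DCs and B cells (overlapping), WT 33D1 DCs and CD8 T cells (overlapping), CD4 T cells, then both DEC205 groups (overlapping). For Ms4a6b it was both T cell groups (overlapping), Flt3L 33D1, WT 33D1, B cells and WT DEC205 DCs (overlapping), then Flt3L DEC205 DCs. For Ms4a6c by 1450234_at it was both 33D1 groups (overlapping), both DEC205 groups (overlapping), CD4 T cells, then CD8 T cells and B cells (overlapping). Ms4a7 ran WT 33D1, Flt3L 33D1, WT DEC205 and Flt3L DEC205 DCs without overlap, and its 3 lymphocyte groups overlapped. Ms4a6d was higher in both T cell groups (overlapping) than in Flt3L 33D1 DCs, and below that no neighbouring groups were apart.

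Probe sets of a gene did not always give the same order. The dimmer probe set of Ms4a4b, 1425325_at, averaged 123 and 114.6 in Flt3L and WT 33D1 DCs, which overlapped 146 in B cells, and 13.3 and 37.8 in the matching DEC205 DCs. The larger disagreement was in Ms4a6c. There, 1457725_at had 4000 ± 572 in B cells, 5141 ± 1093 in CD8 T cells and 6374 ± 1030 in CD4 T cells. In DCs it had 383.9 ± 10.7 and 324.8 ± 48.3 in Flt3L and WT 33D1 DCs, and 202.2 ± 31.1 and 178.4 ± 20.8 in the matching DEC205 DCs (SD, n = 3 each). WT DCs minus lymphocytes was therefore -4.13 ± 0.10 by this probe set and 2.46 ± 0.13 by the other. Both gave higher values in 33D1 than in DEC205 DCs. Which transcript each probe set reads was not tested, so the lymphocyte level of Ms4a6c is uncertain. The 2 probe sets of Ms4a4c are marked by their suffixes (_x_at and _s_at) as ones that can bind several transcripts, as is 1419599_s_at of Ms4a6d, so signal of near-identical family members may be shared between them.

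**Figure D5:**
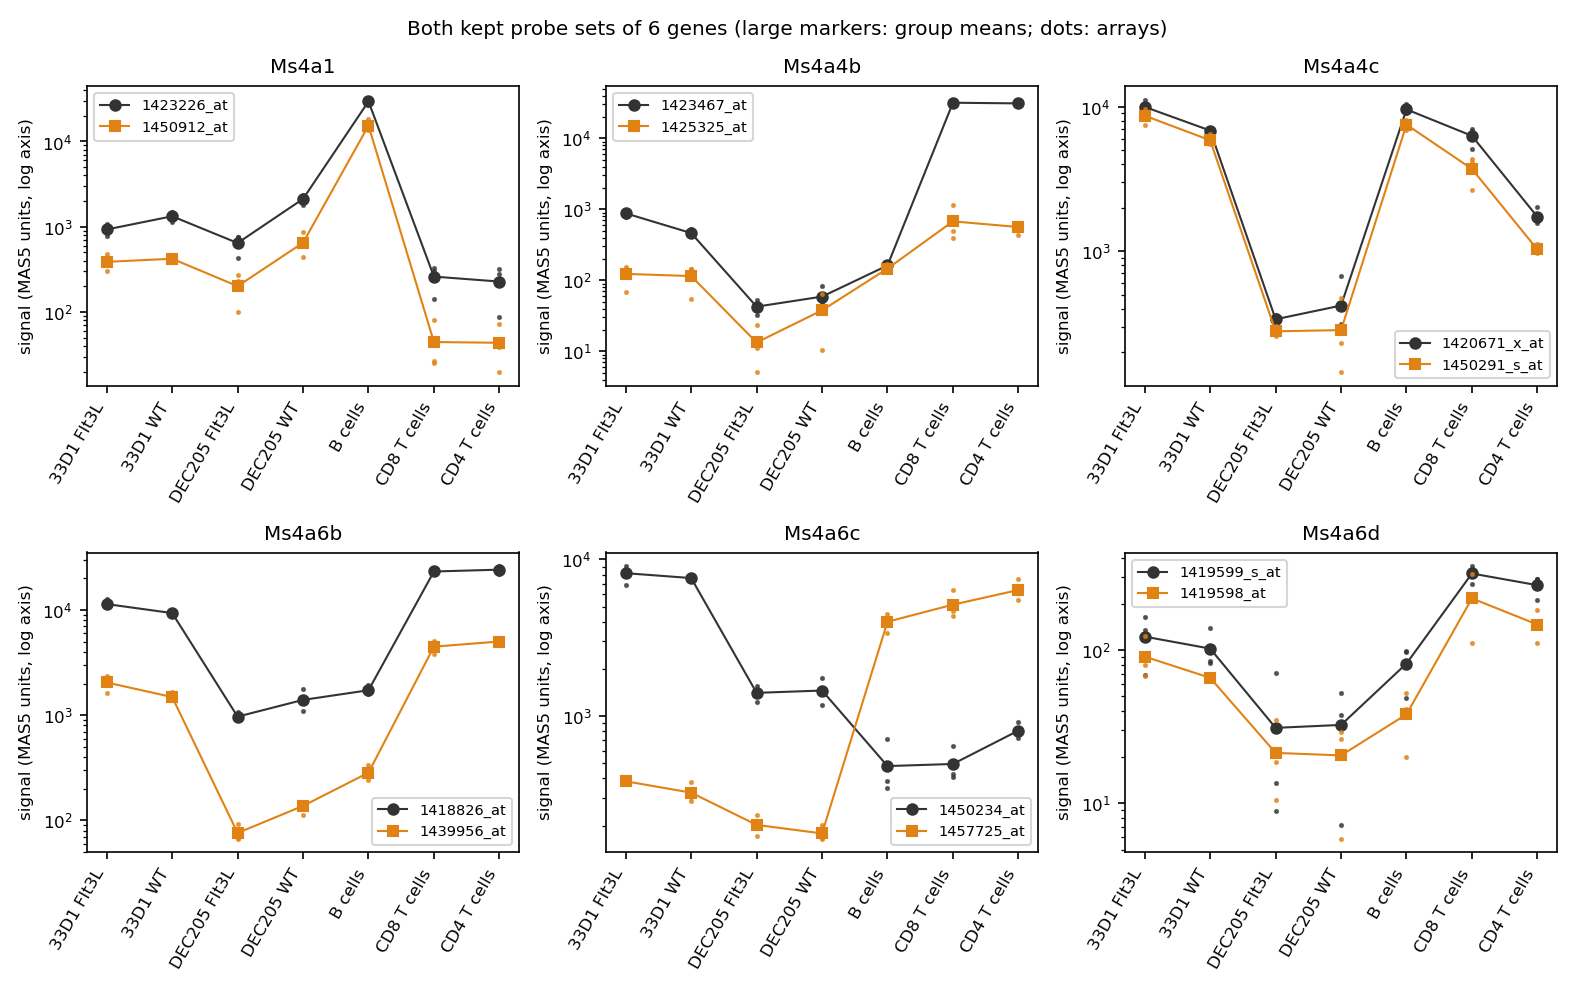
Signal (MAS5 units, log axis) of both kept probe sets of 6 Ms4a genes in the 7 groups; large markers joined by lines are means of 3 arrays and dots are arrays. For Ms4a6c the lines cross: 1450234_at is high in 33D1 DCs (8164 and 7598) and 1457725_at is high in lymphocytes (4000 to 6374).

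The other Ms4a genes were dim. Of 10 with a probe set, Ms4a2, Ms4a3, Ms4a4d, Ms4a10 and Ms4a15 passed the filter, and no array exceeded 654.4 for any of the 10. In the DC comparisons 0 of the 5 were called by limma, and 0 had an unadjusted p under 0.05. Of all tested genes, 11.3% to 11.8% were called in a direction between the DC subsets. For Flt3L minus WT mice the shares were 0.158% to 1.22%. With 5 dim genes, nothing is read from these counts. Ms4a2, the IgE receptor chain, averaged 66.3 and 98.9 in Flt3L and WT 33D1 DCs, against 64.0 and 40.9 in the matching DEC205 DCs. Ms4a4d, which stands between Ms4a6b and Ms4a6d on the chromosome, averaged 75.2 ± 27.3 in B cells, 228.4 ± 27.0 in CD8 and 236.9 ± 90.5 in CD4 T cells, and at most 57.4 in a DC group (SD, n = 3 each). It passed the filter through 5 T cell arrays alone, so no test against T cells is given for it.

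A list of 10 genes for receptors and chains that work with Ms4a proteins, of which 8 were tested, was described next. It was chosen with earlier results of these data known, so its counts and p-values are a description only. In WT mice 5 of the 8 were higher in 33D1 DCs and 0 lower, where 11.3% of all tested genes were higher and 11.8% lower. In Flt3L mice 4 were higher and 0 lower, beside 11.7% and 11.8%. The median differences were 0.86 and 0.52. Fcer1g, the gamma chain that signals beside the Ms4a2 product, averaged 11820 ± 895 in WT 33D1 DCs and 927.1 ± 402 in WT DEC205 DCs (SD, n = 3 each), a difference of 3.69 ± 0.30 (limma, adjusted p = 3.97e-09). Clec7a, the receptor dectin-1, was higher by 2.48 ± 0.34 (adjusted p = 7.56e-06). Cd79b, a chain of the B cell receptor, was higher by 2.34 ± 0.26 (adjusted p = 4.52e-07), though at 816 against 122 signal units, while its partner Cd79a was not called (-0.08 ± 0.37). Tnfrsf18, which encodes GITR, was higher by 0.41 ± 0.12 (adjusted p = 0.0137). With Flt3L melanoma, 0 of the 8 were called in either subset, and 1 in 33D1 and 3 in DEC205 DCs had an unadjusted p under 0.05. Of all tested genes, 0.851% were called higher and 0.158% lower in 33D1 DCs, and 1.22% and 0.888% in DEC205 DCs.

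Tetraspanins and the Tmem176 proteins are other membrane proteins with a like layout, and 22 of 25 listed genes were tested. Of these, 33D1 DCs of WT mice had 7 higher and 4 lower (11.3% and 11.8% of all tested genes), and those of Flt3L mice 7 and 5 (11.7% and 11.8%), with median differences of 0.09 and 0.12. Tmem176a and Tmem176b, a neighbouring gene pair, were higher in WT 33D1 DCs by 3.20 ± 0.24 and 2.86 ± 0.32, and Cd81, a tetraspanin, was lower by -2.71 ± 0.17 (limma, adjusted p = 7.8e-11). Tmem176a and Tmem176b were lower in DEC205 DCs of Flt3L mice (means 320.8 and 672.7) than of WT mice (716.2 and 1916; limma, adjusted p = 0.0328 and 0.0319), and both were highest among WT DEC205 arrays on array 3. Cd81 was lower in 33D1 DCs of Flt3L mice by -1.02 ± 0.17 (adjusted p = 0.0024). The tetraspanin and Tmem176 list too was chosen with earlier results known, so its counts and p-values are a description only.

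The genes whose group means were most like those of each Ms4a gene were taken from 2140 genes by Pearson's r over the 7 group means. All points share the same arrays, and with 7 points high values are common, so r is given as a description. For Ms4a1 they were Pold4, Myzap and Serpinb1a (r 0.974 to 0.983), and for Ms4a4b Il7r, Tnfrsf9 and Ift80 (0.986 to 0.990). Il7r, the receptor of interleukin 7, averaged 389.3 and 434.2 in Flt3L and WT 33D1 DCs, 87.8 and 112.1 in DEC205 DCs and 12910 and 12840 in CD8 and CD4 T cells. For Ms4a4c they were Cd72, Mgat4a and Tlr1 (0.960 to 0.964). Cd72, a B cell membrane protein, averaged 4652 and 2682 in Flt3L and WT 33D1 DCs, 225.4 and 253.1 in the matching DEC205 DCs and 9368 in B cells. Ms4a6b was most like Rarg, Emb and Rab37 (0.973 to 0.989), Ms4a6c by 1450234_at like Hrh1, Gsg1 and Fcer1g (0.992 to 0.994), Ms4a6d like Zfp658, Zfp53 and Thada, and Ms4a7 like Sat1, Nr4a1 and Cd300a. By 1457725_at, Ms4a6c was instead most like Rhoh, Xrcc5 and Gimap6 (0.994 to 0.997), and it shared none of its 3 nearest genes with the other probe set.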

How the data were processed

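RNA of 21 pools was measured on Affymetrix arrays. Total RNA was taken with Qiagen columns and biotinylated cRNA made from 5 ug of it, per the labels' protocols. The deposited values are probe set intensity on a linear scale, and the submitters' processing notes name GCOS and MAS5 as the authors' tools (versions: not given in the sources used here). From these, 45101 probe sets were read and 34945 with exactly 1 symbol in the platform annotation were used. Signals became log2(signal + 48.6), the 25th percentile of the table. Probe sets above 156.3 on at least 3 arrays were kept, and the one with the highest mean represented a gene (13284 genes). All arrays entered 1 limma fit (limma 3.58.1, R 4.3.3, group means, intensity trend, 14 residual degrees of freedom, two-sided), with Benjamini-Hochberg adjustment over all genes of a contrast and calls at an adjusted p under 0.05. The script was tested on simulated data.

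The 7 genes and all gene lists were chosen with earlier results of these data known. Named genes are every Ms4a gene measured, up to 4 genes of each other list with the smallest adjusted p in a comparison, and the 3 genes most like each Ms4a gene among those whose group means span at least 2 log2 units, leaving out the 7 and clone-type symbols. Single markers named beside these (such as Cd79a, Pax5, Cd5 and Cd3d) were chosen after their values were seen. Replicate numbers in the titles were checked for pairing in some pairs of groups. Same-numbered deviations of Flt3L 33D1 and Flt3L DEC205 arrays correlated by 0.234, 0.145 and 0.157 across genes, so these pairs may share a source. The other pairs checked were the WT DC subsets, Flt3L with WT mice within each subset, and CD8 with CD4 T cells. None of these correlated above 0.1 for all 3 numbers, and further pairs of groups were not checked. Promoter windows are from RefSeq (GRCm38.p6) and were aligned with biopython 1.88 (match 1, mismatch -1, gap opening -2, gap extension -0.5). Alternatives were other normalizations, offsets, filters and probe sets, no trend, a replicate block, and leaving out arrays.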

Additional observations from a re-analysis of the deposited data

Results flagged for a closer look

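The effect of Flt3L melanoma on Ms4a4b differed between the DC subsets by 1.083 on the log2 scale (SE 0.198), higher in 33D1 DCs than in DEC205 DCs. The interaction term of the fit picked it out. Its 3 Flt3L arrays were above its 3 WT arrays in 33D1 DCs, and the groups overlapped in DEC205 DCs, where all 6 signals were below the table median. The gene had been selected on these arrays. The call was lost under 14 of the alternatives, among them the replicate block (1.083), quantile normalization (1.027), an offset of 16 (1.236), no intensity trend (1.083), without both arrays that stood apart (0.996) and the second probe set (0.533).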

How the results depend on the processing

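The Ms4a6c difference of WT DCs minus lymphocytes reversed with its other probe set (-4.131). The counts of called genes that moved by over 1.5 times were as follows, and the cause was not tested. For Flt3L minus WT 33D1 DCs, 113 higher became 70 with no intensity trend and 70 without both arrays that stood apart, and 44 to 78 with 1 array left out. There 21 lower became 34 with quantile normalization, 49 with the table median as offset and 50 with every probe set, and 9 to 33 with 1 array left out. In these, leaving out any 1 of the 6 arrays moved a count. For Flt3L minus WT DEC205 DCs, 162 higher became 48 to 152 and 118 lower became 46 to 95 with 1 array left out (lowest without array 2 of Flt3L DEC205 DCs, and moved by leaving out any 1 of the 6), and the lower count was 57 without both arrays that stood apart. For the difference of effects, 12 higher became 6 with an offset of 16, 23 with the table median, 5 with no trend and 2 without both arrays, and 2 to 12 with 1 left out. There 2 lower became 6 with the table median and 1 with median centring, no trend, without both arrays and with every probe set, and 1 to 3 with 1 left out. Each DC array other than array 3 of Flt3L DEC205 DCs moved one of these 2 counts. For CD8 minus CD4 T cells, 216 lower became 127 to 246 (127 without array 3 of the CD4 T cells).

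With the replicate block, the difference of effects had 7 genes higher and 1 lower, and no other count moved by over 1.5 times. The numbers may pair the Flt3L 33D1 and DEC205 arrays, and a block among those arrays alone, added after seeing the data, moved no count of genes by over 1.5 times but ended the call of Ms4a7 between the subsets in Flt3L mice (0.93), which leaves 5 of the 7 called there. In all, 238 counts stayed within 1.5 times and 54 did not, and 963 Ms4a differences moved by less than the replicate spread, 50 by more. With 3 arrays a group and MAS5 signals near the table median, Ms4a6d, Ms4a7 and DEC205 levels of Ms4a4b are among the least certain. So is the lymphocyte level of Ms4a6c, on which its probe sets disagree.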
